A study of Mus musculus with 7 samples.

Results

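Elavl2, Isl1, Nectin3, Garem1 and Mei4 are 5 genes that had 0 counts in every wild-type lymphoma line and at least 5 CPM in every Smchd1 null line. CPM (counts per 1000000) is the count of a gene scaled by the total count of its library. Of the 27179 genes in the count tables, 9 (0.0331%) met both conditions. The other 4 were Nfib, Peg12, Fzd10 and Nr2f2, which are not described here. The 5 genes were chosen by their counts in these same libraries, so their levels are given below as a description without a test. What the choice did not use was the behaviour of the genes beside them on the chromosome and of the genes related to them by function, and these were tested. The neighbours and the lists of related genes were, however, chosen with earlier results of these data known.

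The libraries were made from total RNA of lymphoma cell lines established at end-stage disease in male C57BL/6 mice, all of which carried the Eµ-Myc transgene. In this model an immunoglobulin heavy chain enhancer drives Myc in B lineage cells, so both groups share the same oncogene. The 3 wild-type lines had normal Smchd1 and the 4 Smchd1 null lines were homozygous for an Smchd1 gene trap according to the labels. The methods of the study write the null allele as MD1, and whether the names stand for the same allele is not settled by these sources. No treatment, time course or animal age was given. The labels do not say whether the lines of a group came from separate mice, so the p-values below measure the spread between these lines only.

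Smchd1 encodes a non-canonical member of the structural maintenance of chromosomes family, a chromatin protein that takes part in silencing on the inactive X chromosome, at imprinted loci and at clustered genes. The genes described here have well known roles outside lymphocytes. Elavl2 encodes a member of the ELAV (Hu) family of RNA-binding proteins, found mostly in neurons and germ cells, and Isl1 a LIM-homeodomain transcription factor of motor neurons, heart progenitors and pancreatic islets. Nectin3 encodes a cell adhesion molecule of the immunoglobulin superfamily, Garem1 an adaptor that binds GRB2 downstream of growth factor receptors, and Mei4 a protein required for the programmed DNA breaks of meiosis.

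The sequences just upstream of the annotated starts of these genes are shown because they differ widely in their content of CpG, the dinucleotide at which mouse DNA is methylated. Each is written 5′ to 3′ on the strand of its gene, with every CpG in capitals. They come from RefSeq on GRCm38.p6 and end just before a start listed in the RefSeq promoter table. For Isl1, 1 base that GENCODE M21 assigns to an exon is left out. The Isl1 stretch is chr13:116309690-116309938 on the minus strand, the Nectin3 stretch chr16:46496968-46497217 on the minus strand, and the Mei4 stretch chr9:81863420-81863669 on the plus strand. The listed start of Nectin3 lies inside the gene body given below, not at its outer end. RefSeq gives Elavl2 several starts. The middle of these has chr4:91376497-91376746 upstream of it and the inner one chr4:91372070-91372319, both on the minus strand. Tusc1, a neighbour of Elavl2 that returns below, is shown with chr4:93335512-93335761 on the minus strand. Garem1 had no match in the RefSeq promoter table.
Isl1: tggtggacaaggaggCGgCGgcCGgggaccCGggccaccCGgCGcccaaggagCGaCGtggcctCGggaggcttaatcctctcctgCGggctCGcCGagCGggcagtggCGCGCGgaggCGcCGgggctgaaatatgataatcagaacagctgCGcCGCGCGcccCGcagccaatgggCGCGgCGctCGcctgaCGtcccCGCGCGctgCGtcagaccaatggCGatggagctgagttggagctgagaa
Nectin3: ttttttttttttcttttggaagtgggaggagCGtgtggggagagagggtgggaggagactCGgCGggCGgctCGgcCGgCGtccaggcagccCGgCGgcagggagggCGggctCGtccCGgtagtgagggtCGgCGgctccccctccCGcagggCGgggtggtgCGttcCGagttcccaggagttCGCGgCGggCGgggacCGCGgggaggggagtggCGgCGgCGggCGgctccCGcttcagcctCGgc
Tusc1: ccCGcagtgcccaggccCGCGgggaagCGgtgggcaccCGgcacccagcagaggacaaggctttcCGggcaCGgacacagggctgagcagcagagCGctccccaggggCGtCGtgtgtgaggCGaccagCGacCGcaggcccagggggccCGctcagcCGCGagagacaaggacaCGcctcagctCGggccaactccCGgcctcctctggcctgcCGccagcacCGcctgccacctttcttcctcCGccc
Mei4: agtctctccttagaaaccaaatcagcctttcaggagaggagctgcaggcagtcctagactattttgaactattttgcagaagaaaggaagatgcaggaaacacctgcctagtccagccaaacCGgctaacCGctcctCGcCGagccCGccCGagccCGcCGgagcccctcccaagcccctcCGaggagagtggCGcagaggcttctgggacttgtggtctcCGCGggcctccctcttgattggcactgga
Elavl2, middle start: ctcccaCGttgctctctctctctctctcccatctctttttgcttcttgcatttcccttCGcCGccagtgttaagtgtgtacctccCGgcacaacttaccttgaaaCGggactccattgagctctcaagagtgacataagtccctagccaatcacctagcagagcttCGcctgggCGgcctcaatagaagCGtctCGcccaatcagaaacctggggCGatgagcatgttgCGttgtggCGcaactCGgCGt
Elavl2, inner start: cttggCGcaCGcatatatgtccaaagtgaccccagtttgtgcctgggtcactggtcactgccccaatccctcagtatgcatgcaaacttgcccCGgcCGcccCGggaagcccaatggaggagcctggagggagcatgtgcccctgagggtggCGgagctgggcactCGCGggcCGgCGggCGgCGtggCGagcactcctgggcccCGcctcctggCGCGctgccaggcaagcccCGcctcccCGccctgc

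Over the window from 250 bases before to 50 bases after the start, Nectin3 had 40 CpG and Isl1 had 37. Only 3.91% and 5.58% of the 32851 windows of all genes held as many, and the median window held 7. Tusc1 had 33 CpG, which 8.56% of windows reached, and Mei4 had 16, which 33.0% of windows reached. The windows of Elavl2 ran from 10 CpG at the outermost start to 27 at the inner group of starts. CpG content at the start was therefore not shared, and the windows of Nectin3 and Isl1 were far denser than that of Mei4. DNA methylation was not measured in these samples.

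The targeted gene was checked first. Smchd1 had 248, 230.3 and 219 CPM in wild-type replicates 1 to 3 and 25.9, 22.7, 28.6 and 28.7 CPM in Smchd1 null replicates 1 to 4. Its mean in the null lines was 11.4% of the wild-type mean, and the groups did not overlap (exact permutation test, two-sided, p = 0.0286, the smallest that the 35 splits of 7 libraries allow). Total counts ranged from 3626853 to 7519549 per library. A count of 0 allows up to 3 counts, which is 0.399 to 0.827 CPM in single libraries and 0.181 CPM over the 3 wild-type libraries together, for counting error only. Some libraries stood apart. Wild-type replicates 2 and 3 lay at a leading log2 fold change distance of 1.26 over the top 500 genes, whereas every other pair of libraries was at least 3.11 apart. Wild-type replicate 1 was the only library of batch 1 and the only one sequenced as single-end reads, so batch and line cannot be told apart for it. Smchd1 null replicate 4 was the farthest from its group. It had 25.4 CPM of Cd22, a B cell surface receptor gene, against 180.0 CPM or more in the other 6 libraries, and 16.6 CPM of Pax5, the B lineage transcription factor gene, against 51.3 CPM or more. The B cell receptor component genes Cd79a and Cd79b had counts in every library, from 181 to 298 CPM in wild-type and from 100.4 to 444 CPM in null lines.

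Markers of cells in which some of the 5 genes are usually found were examined next. Of 8 neuronal markers, Rbfox3, Snap25, Syt1 and Stmn2 had 0 counts in all 7 libraries. The summed neuronal level was 35.1 to 165 CPM in wild-type and 72.2 to 256 CPM in null lines, nearly all of it from the tubulin gene Tubb3 and from Map2. Tubb3 had 137, 27.1 and 34.2 CPM in wild-type and 69.6, 246, 78.8 and 61.8 CPM in null lines. Wild-type replicate 1 fell within the null range. Tubb3 was called higher in null lines in the limma fit with sample weights described below (log2 fold change 1.95 ± 0.46 SE, FDR 0.0339). It was not called with voom alone (log2 fold change 1.04, FDR 0.603), edgeR (FDR 0.709) or DESeq2 (FDR 0.699). Of 5 germ cell markers, Sycp1 and Stra8 had 0 counts throughout and the sum stayed between 0.551 and 1.76 CPM in wild-type and between 0.309 and 2.66 CPM in null lines. Stromal markers summed to at most 0.266 CPM in every library but wild-type replicate 1, where they reached 10.2 CPM. T cell markers summed to at most 0.532 CPM. Myeloid markers summed to 4.14 to 15.7 CPM in wild-type and 4.89 to 32.3 CPM in null lines. Endothelial markers summed to 47.7 to 70.3 CPM in wild-type and 63.3 to 223 CPM in null lines, with null replicate 4 the highest. Nearly all of this came from Pecam1, at 44.1 to 68.3 CPM in wild-type and 61.8 to 219 CPM in null lines. Kdr and Emcn were at 0 throughout. The part of these markers in the levels of the 5 genes was not tested.

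Elavl2 (Entrez 15569, chromosome 4, 91211533 to 91400108, minus strand) was the most abundant of the 5. It had 258, 48.99, 35.8 and 55.6 CPM in Smchd1 null replicates 1 to 4, from 1739, 305, 232 and 418 counts. Replicate 1 had 4.63 times the level of the next library, and the other 3 lay close together. The mean was 99.5 ± 105.7 CPM (SD, n = 4), and without replicate 1 it was 46.8 ± 10.1 CPM (SD, n = 3). Against the limit of 3 counts over the wild-type group, the mean was at least 549-fold higher and the lowest null line at least 198-fold higher. In replicate 1 the count of Elavl2 exceeded that of 93.9% of the genes that passed the filter on low counts, and in replicate 3 that of 54.1%. The annotated gene spans 188.6 kb.

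Nectin3 (Entrez 58998, chromosome 16, 46387665 to 46498535, minus strand) came next. It had 20.1, 14.1, 13.1 and 33.7 CPM in null replicates 1 to 4, with a mean of 20.3 ± 9.44 CPM (SD, n = 4). Replicate 4 was the highest, at 1.67 times the level of replicate 1, and replicates 2 and 3 did not differ beyond their counting error. The mean was at least 112-fold above the wild-type limit. In replicate 4 the genes of chromosome 16 as a whole were also raised relative to the other null lines. Their median log2 difference from the other 3 was 0.43, over 388 genes and relative to all genes, beside 1.04 for Nectin3. The part of that chromosome-wide difference in the level of Nectin3 was not tested.

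Isl1 (Entrez 16392, chromosome 13, 116298270 to 116309688, minus strand) had 5.48, 11.9, 9.58 and 7.05 CPM in the null lines, from 37 to 74 counts. Replicate 2 exceeded replicates 1 and 4 with 95% Poisson intervals that did not overlap, and replicate 1 was the library in which Elavl2 was highest. The mean was 8.50 ± 2.82 CPM (SD, n = 4), at least 46.9-fold above the wild-type limit. Isl1 is also the only one of the 5 with a compact gene body, of 11.4 kb.

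Mei4 (Entrez 75033, chromosome 9, 81863670 to 82206007, plus strand) had 5.92, 7.07, 10.04 and 9.71 CPM, with a mean of 8.19 ± 2.01 CPM (SD, n = 4). The 95% Poisson intervals of all 4 libraries overlapped. The mean was at least 45.1-fold above the wild-type limit. With a span of 342 kb the gene was longer than 98.2% of the genes with a position.

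Garem1 (Entrez 381126, chromosome 18, 21127342 to 21300139, minus strand) was the most even. It had 8.59, 6.58, 6.18 and 5.72 CPM, with a mean of 6.77 ± 1.26 CPM (SD, n = 4), at least 37.3-fold above the wild-type limit. Its coefficient of variation over the null lines was 18.7%, against 106% for Elavl2. The 95% Poisson intervals of all 4 libraries overlapped here too, and the order among them was not tested. Chromosome 18 genes had a median log2 difference of 0.25 in null replicate 4 and 0.31 in replicate 3 relative to the other null lines, and -0.28 and -0.31 in replicates 1 and 2. The part of these differences in the level of Garem1 was not tested.

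**Figure D1:**
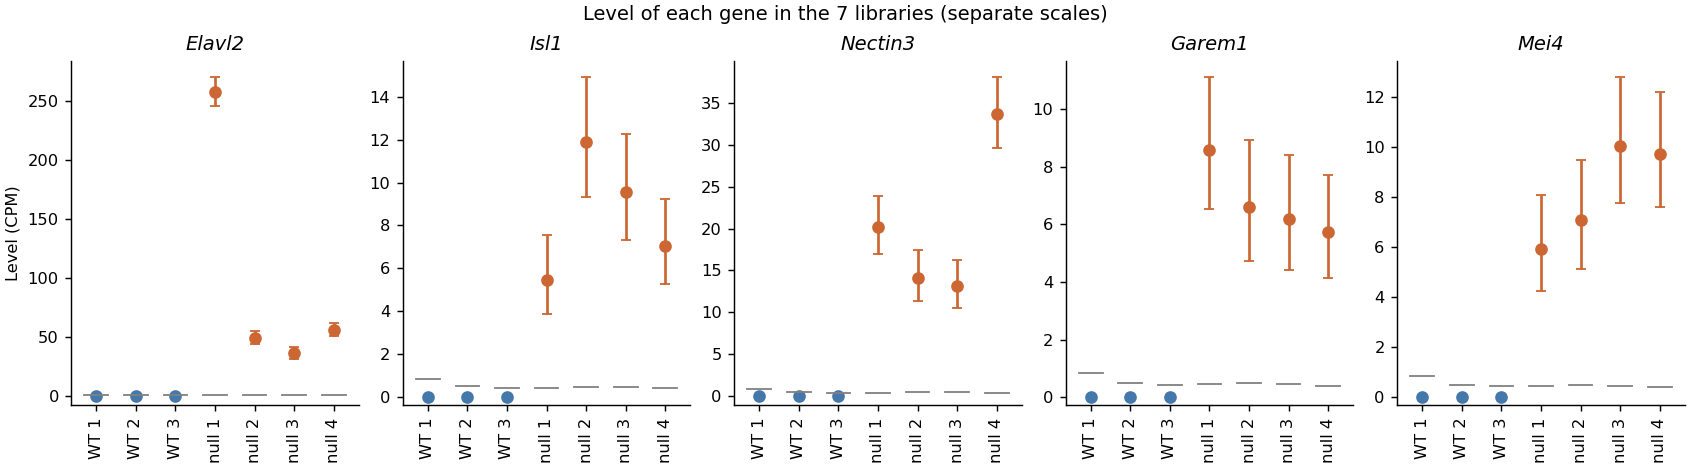
Level in CPM (vertical axis, a separate linear scale in each panel) of Elavl2, Isl1, Nectin3, Garem1 and Mei4 in the 3 wild-type (WT, blue) and 4 Smchd1 null (orange) libraries; bars are 95% Poisson intervals of the null counts and grey dashes mark the level of 3 counts in each library. All wild-type points lie at 0, and Elavl2 in null replicate 1, at 258 CPM, lies far above its other null values.

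The 5 genes did not follow 1 library. Elavl2 was higher in null replicate 1 than in each of the others, Nectin3 was higher in replicate 4 than in each of the others, and Isl1 was higher in replicate 2 than in replicate 1, all with Poisson intervals that did not overlap. The intervals of the null lines overlapped for Garem1 and Mei4. Per kilobase of exon, the mean null levels (RPKM, the CPM divided by gene length in kilobases) were 21.8 for Elavl2, 4.89 for Nectin3, 3.36 for Isl1, 2.67 for Mei4 and 1.42 for Garem1. Elavl2 and Nectin3 overlapped on this scale, from 7.86 to 56.5 RPKM and from 3.17 to 8.11 RPKM. Nectin3, Isl1 and Mei4 overlapped as well. The range of Garem1, 1.196 to 1.796 RPKM, lay below that of Mei4, 1.94 to 3.28 RPKM.

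The limit of 5 CPM cut through a continuous run of levels. Mei4, Garem1 and Isl1 were just inside, with lowest null levels of 5.92, 5.72 and 5.48 CPM. Zic1 and Tusc1 were just outside, with 0 counts in every wild-type library and lowest null levels of 3.71 and 3.398 CPM. A lower limit of 2 CPM gave 15 genes in place of 9. No gene met the reverse condition, 0 counts in all null lines and at least 5 CPM in all wild-type lines.

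**Figure D2:**
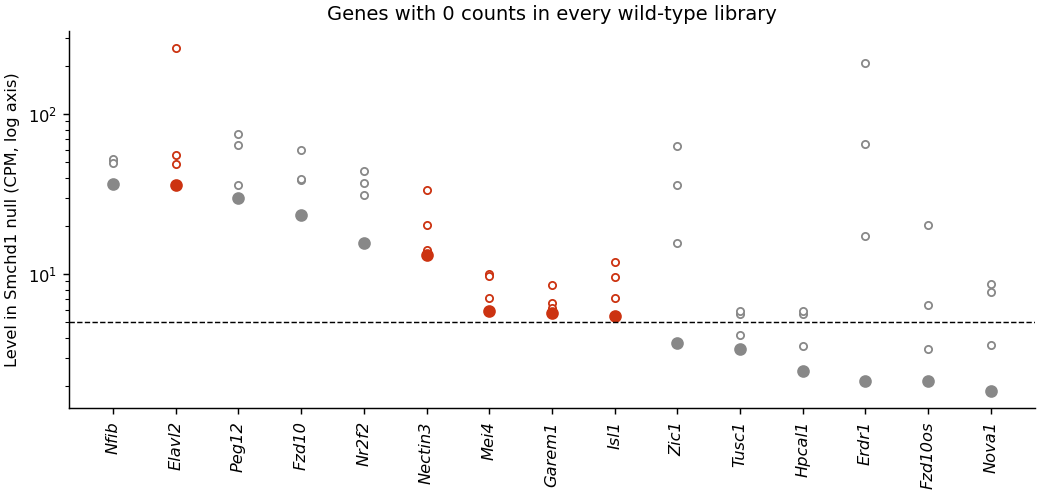
Level in CPM (vertical axis, logarithmic) in the 4 Smchd1 null libraries of genes with 0 counts in every wild-type library and a position in the annotation, ordered by their lowest null level; filled points are the lowest library, open points the other 3, and the genes described here are red. The dashed line is the limit of 5 CPM, with Isl1 at 5.48 CPM just above it and Zic1 at 3.71 CPM just below.

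The genes most like each of the 5 over the 7 libraries were found by the root mean square difference in log2(RPKM + 0.1), among genes that passed the filter. Isl1 was nearest to Tusc1, at a difference of 0.37, and to Mei4, at 0.39. Mei4 in turn was nearest to Isl1 and then to Tusc1, at 0.44. Nectin3 was nearest to Nfib, at 0.40, followed by Tusc1, at 0.45. Garem1 was nearest to Mexis, at 0.45, which had at most 1 count in a wild-type library and 1.23 to 2.21 RPKM in the null lines. Lyplal1 also ranked among the 3 nearest for Garem1, Nfib for Isl1 and Hpcal1 for Nectin3 and Mei4. Elavl2 had no close match, with Peg12 at 0.76, Fzd10 at 0.87 and Nr2f2 at 1.25. None of these genes is on the same chromosome as the gene it resembles. The measure rests mainly on being at or near 0 in the wild-type lines and on the level in the null lines, so it says little of the order of the null lines.

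The next question was whether genes beside these 5 also differed between the groups. Neighbours were the 5 nearest genes on each side whatever their level, with the 3 nearest on each side that passed the filter of at least 0.5 CPM in 3 libraries. This gave 60 genes, none overlapping the gene it flanks. Of these, 19 had 0 counts in all 7 libraries and 35 could be tested. The limma fit used voom and sample weights. Wild-type replicate 1 had a weight of 0.246, against 3.785 and 3.059 for wild-type replicates 2 and 3. The wild-type side of its fold changes therefore rests mainly on replicates 2 and 3. A gene is called when its false discovery rate (FDR) in this fit over all 12303 genes tested is under 0.05. By that rule 4 neighbours were called, 3 higher (Tusc1, Btla and B4galt6) and 1 lower (Hmgn3) in null lines. That is 11.4% of the neighbours tested, beside 11.9% of all genes tested (5.06% higher and 6.85% lower), so the neighbours as a whole were called about as often as genes in general. Tusc1 and B4galt6 passed the filter through the null lines alone. With at least 10 counts required in every library, 24 neighbours were tested and 1 was called, Btla. Under that filter 1533 of all 9522 genes tested were called. The groups did not overlap for 6 of the 35 with null lines higher, beside 6.35% of all genes tested, and for 1 with null lines lower, beside 6.85%. Among those higher, Tusc1, B4galt6 and Filip1 passed the filter through the null lines alone. Their lack of overlap is therefore no support for a difference. The median log2 fold change of the tested neighbours was 0.16, beside -0.01 over all genes tested. Of the single nearest genes on each side, 5 could be tested and 0 were called. Within 1 Mb of the 5 gene bodies, 15 genes were tested and 2 were called, B4galt6 and Hmgn3.

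**Figure D3:**
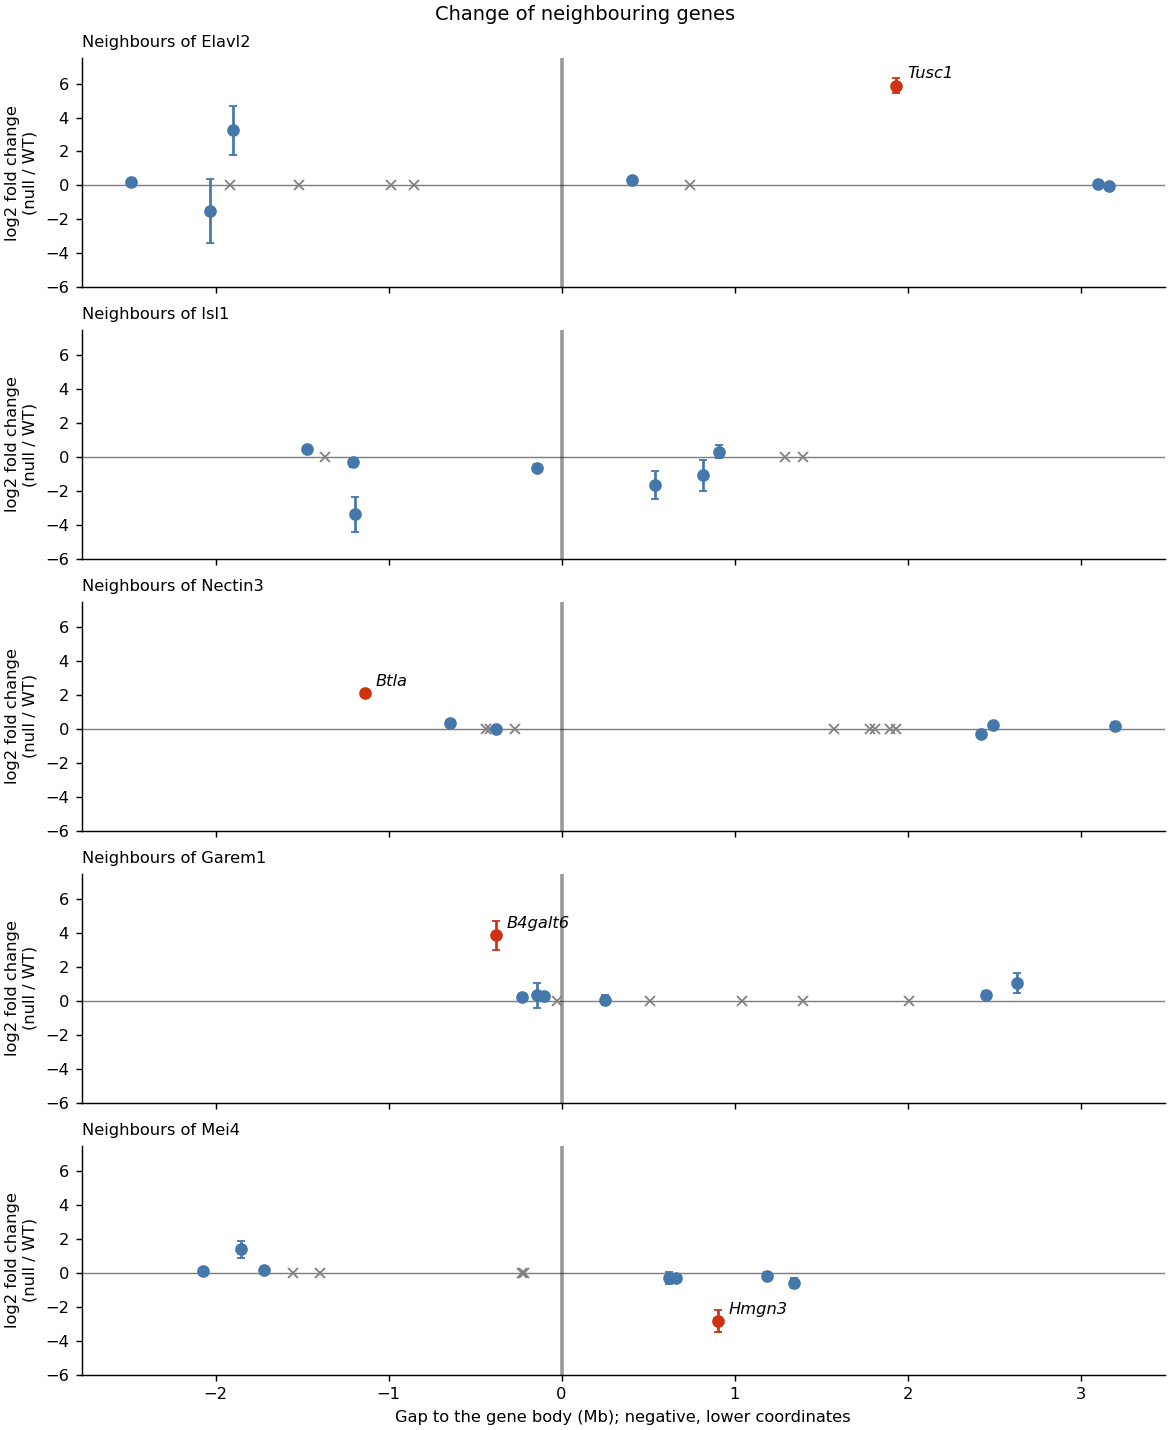
Log2 fold change, Smchd1 null over wild-type, with its standard error (vertical axis) of the neighbours of each gene against the gap between gene bodies in Mb (horizontal axis, negative towards lower coordinates). Red points were called in the limma fit, blue points were not, and grey crosses at 0 are genes too low to test. The called genes lie 0.381 to 1.93 Mb from the gene they flank, with uncalled or untested genes between.

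Gene density around each of the 5 was below the median of all genes. Elavl2 and Isl1 each had 4 other genes within 1 Mb, Mei4 had 5, Nectin3 13 and Garem1 14, where the median over 25271 genes was 32. Fewer neighbours than Elavl2 or Isl1 were found for 1.48% of genes, and fewer than Mei4 for 2.11%. The share was 14.1% for Nectin3 and 16.1% for Garem1, so their surroundings were less unusual.

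Of the 4 genes within 1 Mb of Elavl2, 3 had 0 counts in every library, and 1 was tested and not called. On the side of lower coordinates, the pseudogene Gm12633 and the zinc finger gene Zfp352 had 0 counts in every library, and Dmrta1 had counts only in wild-type replicate 1. Beyond them lie the cell cycle inhibitors Cdkn2b and Cdkn2a, 1.9 Mb away. Cdkn2a had 233 CPM in wild-type replicate 1 and 4.59 CPM or less in every other library, so it differed within the wild-type group and did not pass the filter. Mtap, the methylthioadenosine phosphorylase gene next to it, had 88.4 to 181 CPM in wild-type lines. In null lines it had 196, 179, 0 and 136 CPM. Null replicate 3, at 0 for Mtap, was at 0 for Cdkn2a and Cdkn2b too, as were wild-type replicates 2 and 3 and null replicate 4, which kept Mtap. On the other side, the nearest gene, the pseudogene Gm12669 at 405 kb, had 180.1 to 297 CPM in wild-type and 207 to 254 CPM in null lines (log2 fold change 0.30 ± 0.12 SE, limma FDR 0.117). As a pseudogene it may share reads with its parent gene, so its level is uncertain. Izumo3, at 744 kb, had 0 counts throughout.

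Tusc1, the next gene on that side, lies 1.93 Mb from Elavl2. Like Elavl2 it had counts in the null lines only, but at a lower level and without the high value in null replicate 1. It had 0 counts in the 3 wild-type lines and 4.15, 5.62, 3.398 and 5.85 CPM in null replicates 1 to 4, with no overlap. Its mean of 4.75 ± 1.18 CPM (SD, n = 4) was at least 26.2-fold above the wild-type limit. Tusc1 was named for its place in a deleted region of lung tumours. It passed the filter through the null lines alone, so it could be tested only if it was high there, and its call is no support for a difference. It was called in 11 of 15 alternative settings, and not with wild-type replicates 2 and 3 summed into 1 sample. Past Tusc1, the next genes Caap1 and Plaa had log2 fold changes of 0.10 and -0.03 and were not called.

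No neighbour of Isl1 was called. Of 10 neighbours 7 could be tested, with a median log2 fold change of -0.60. The nearest gene at lower coordinates, the ribosomal protein pseudogene Rpl34-ps2 at 144 kb, had 48.1 to 127 CPM in wild-type and 27.7 to 55.5 CPM in null lines (log2 fold change -0.60 ± 0.23 SE, limma FDR 0.121), and reads of the parent gene can be counted there. Itga1, an integrin alpha subunit gene at 1196 kb, had 0, 3.77 and 3.22 CPM in wild-type and at most 0.592 CPM in null lines (limma FDR 0.0686). Itga2 beside it had 0 counts throughout, and Pelo and Mocs2 were not called. On the other side, Parp8 at 541 kb had 3.58, 14.6 and 11.4 CPM in wild-type and 0.592, 15.1, 7.11 and 0.665 CPM in null lines (limma FDR 0.222). The transporter chaperone gene Emb had 8.65 to 55.5 CPM in null lines within which all wild-type values fell. No other gene of this interval had counts in every null line and in no wild-type line, a condition that Isl1 met by its choice. Only 64 of all 27179 genes (0.235%) had such counts, so the lack of another among a few neighbours says little.

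Around Nectin3, 7 of 14 neighbours had 0 counts in all libraries. Among them were Cd96, whose product binds nectins and nectin-like proteins on T and NK cells, at 267 kb, and the germline genes Dppa4, Dppa2 and Morc1 on the other side. Plcxd2, the nearest gene that could be tested, had 21.8 to 23.1 CPM in wild-type and 18.7 to 26.6 CPM in null lines (log2 fold change 0.01 ± 0.13 SE, limma FDR 0.963). Abhd10 at 645 kb was not called either. Btla encodes an inhibitory receptor of lymphocytes and lies at 1135 kb, as the 14th gene on its side. It had 23.4, 5.90 and 8.06 CPM in wild-type and 36.1, 29.1, 30.0 and 23.7 CPM in null lines. The groups did not overlap, but wild-type replicate 1, at 23.4 CPM, came close to the lowest null line, at 23.7 CPM. The log2 fold change of Btla was 2.11 ± 0.22 (SE) with a limma FDR of 0.00378. With voom alone Btla had 1.63 and an FDR of 0.206, and with DESeq2 1.30 and an FDR of 0.127. It was called in 10 of 16 alternative settings, with an FDR of 0.00235 to 0.796. Dzip3, at 2426 kb, was lower in every null line than in every wild-type line, 51.9 to 58.7 against 63.2 to 105 CPM, but was not called (limma FDR 0.112).

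Garem1 had the densest surroundings of the 5. Mep1b, a metalloprotease gene only 27.1 kb away, had 0 counts in all 7 libraries. Rnf138, a ubiquitin ligase gene at 99.1 kb, had 43.8 to 47.7 CPM in wild-type and 46.3 to 70.5 CPM in null lines (log2 fold change 0.31 ± 0.13 SE, limma FDR 0.151). Rnf125 and Trappc8 followed and were not called, although Trappc8 did not overlap between groups. B4galt6, which encodes a lactosylceramide synthase and lies at 381 kb, had 0, 0.328 and 1.17 CPM in wild-type and 5.63, 8.03, 12.5 and 79.1 CPM in null lines. Null replicate 4 was far above the rest, but every null line exceeded every wild-type line. Like Tusc1 it passed the filter through the null lines alone, so its call is no support for a difference. It was called in 9 of 15 alternative settings, but not with voom alone or without null replicate 2. On the other side, Klhl14 at 250.2 kb did not differ beyond the spread between lines (log2 fold change 0.05 ± 0.30 SE, limma FDR 0.922), and Ccdc178 and Asxl3 had 0 counts.

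Mei4 was flanked at lower coordinates by the noncoding RNA gene D430036J16Rik and the serotonin receptor gene Htr1b, within 230 kb, and then by Impg1, all with 0 counts in every library. Senp6 and Filip1, 1.7 to 1.9 Mb away, did not overlap between groups and were higher in null lines, but neither was called (limma FDR 0.338 and 0.11). Filip1 had at most 1.04 CPM in any library and passed the filter through the null lines alone. On the other side the nearest gene, Irak1bp1 at 624 kb, had 6.23 to 9.38 CPM in wild-type and 4.01 to 10.9 CPM in null lines (limma FDR 0.581). Phip at 660.2 kb was not called (limma FDR 0.132). Hmgn3, which encodes a nucleosome-binding protein, lies at 904 kb and had 25.1, 15.4 and 12.3 CPM in wild-type lines. It had 1.04, 3.53, 0.463 and 30.5 CPM in null lines, so that null replicate 4 was above all wild-type lines and the other 3 below them. The limma fit, which gave replicate 4 a low weight, called it lower (log2 fold change -2.83 ± 0.66 SE, FDR 0.0326). It was not called with voom alone (FDR 0.44), nor without null replicate 1, 2 or 3 (FDR 0.0937, 0.0811 and 0.0561). Over 15 alternative settings it was called in 5, with an FDR of 0.0202 to 0.841.

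**Figure D4:**
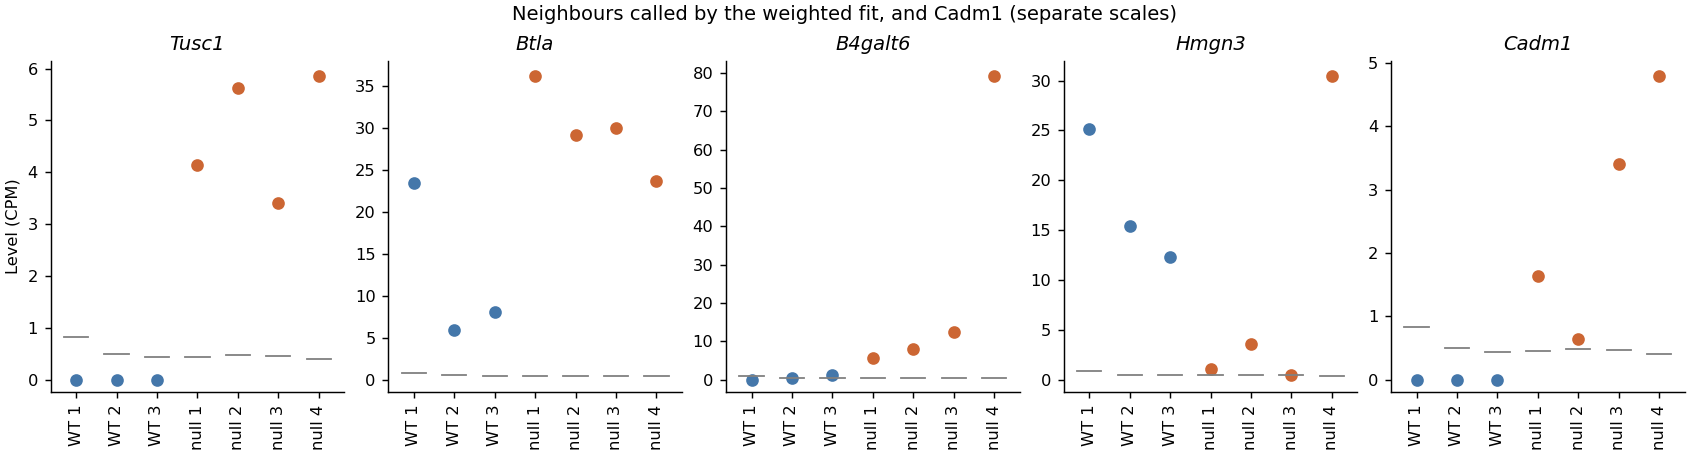
Level in CPM (vertical axis, a separate linear scale in each panel) of Tusc1, Btla, B4galt6, Hmgn3 and Cadm1 in the 3 wild-type (WT, blue) and 4 Smchd1 null (orange) libraries; grey dashes mark the level of 3 counts. Tusc1 and Cadm1 are at 0 in all wild-type lines, and null replicate 4 stands apart for B4galt6, at 79.1 CPM, and for Hmgn3, at 30.5 CPM.

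All 4 calls were lost in limma without wild-type replicate 2 or 3, the closely alike pair, or with the pair summed. Each of those fits called only 1 gene over the whole table, so the loss was not particular to these neighbours. In each, 5 neighbours had an unadjusted limma p under 0.05. The cause of the loss was not tested. The quasi-likelihood test of edgeR called 0 neighbours, with 7 at an unadjusted p under 0.05, and DESeq2 called 2, Tusc1 and B4galt6. These tests called 0.0975% and 3.1% of all genes tested, and voom alone also called 0.0975%.

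Genes related to the 5 by function were examined in 5 lists of 63 genes, of which 62 were found and 32 could be tested. In the same limma fit 5 were called (15.6%, beside 11.9% of all genes tested), 2 higher and 3 lower, with a median log2 fold change of -0.33. None was called by voom alone or by edgeR, each with 5 at an unadjusted p under 0.05. Among the ELAV family, the widely expressed Elavl1 had 120.3 to 182 CPM in wild-type and 128 to 148 CPM in null lines and was not called (log2 fold change 0.09, limma FDR 0.577). The neuronal members Elavl3 and Elavl4 had almost no counts, except for 2.13 CPM of Elavl4 in null replicate 4. Elavl2, chosen for its counts in all 4 null lines, was the only neuronal ELAV gene with them.

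Of the LIM-homeodomain family and its cofactors, 20 genes in all, 7 were tested and 1 was called. Isl2, the closest relative of Isl1, had at most 0.551 CPM in any library, and Lhx1, Lhx3, Lhx4, Lhx8 and Lmx1a had 0 counts in all of them. Ldb1, which encodes the protein that LIM-homeodomain factors bind as a cofactor, was called lower, with 199, 301 and 358 CPM in wild-type and 198 to 215 CPM in null lines (log2 fold change -0.64 ± 0.13 SE, limma FDR 0.0252), although wild-type replicate 1 fell within the null range. Lhx2 had 0.276, 13.1 and 10.3 CPM in wild-type and 0.148 to 1.60 CPM in null lines and was not called (limma FDR 0.0608).

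In the nectin family and its ligands, 7 of 12 genes were tested, with 1 called higher and 1 lower. Cadm1, which encodes a nectin-like adhesion molecule, had 0 counts in wild-type lines and 1.63, 0.642, 3.398 and 4.79 CPM in null replicates 1 to 4. Its mean was at least 14.4-fold above the wild-type limit. It passed the filter through the null lines alone, so its call is no support for a difference. Nectin2 was called lower, with 9.93, 6.40 and 3.22 CPM in wild-type and 0.444, 0.161, 1.55 and 4.12 CPM in null lines (log2 fold change -3.09 ± 0.82 SE, limma FDR 0.0471), and the groups overlapped through null replicate 4. Nectin1, Nectin4, the poliovirus receptor gene Pvr and Afdn, which encodes the actin-binding partner of nectins, were not called. The T and NK cell receptors Cd226, Tigit and Cd96 had 0 counts in every library.

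Of 17 genes for GRB2 and MAPK signalling, in which Garem1 acts, 15 were tested and 2 were called. Hras was called higher, at 35.3 to 39.7 CPM in wild-type and 46.9 to 52.4 CPM in null lines (log2 fold change 0.40 ± 0.11 SE, limma FDR 0.0448). That call was lost whichever library was left out (limma FDR 0.0583 or more) and with DESeq2 (FDR 0.127). Nras was called lower, at 220.3 to 360 CPM in wild-type and 107 to 144 CPM in null lines (log2 fold change -0.83 ± 0.11 SE, limma FDR 0.00976). Neither gene overlapped between groups. Grb2 itself had 105 to 115 CPM in wild-type and 123 to 154 CPM in null lines and was not called (limma FDR 0.0929), and Egfr and Gab1 had 0 counts in every library. The paralogue Garem2 had at most 1.15 CPM.

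Among genes for meiotic break formation, 10 of 11 were found, 2 were tested and 0 were called in the limma fit. Rec114, whose product forms a complex with MEI4, had 0.551 to 0.984 CPM in wild-type and 0.266 to 0.803 CPM in null lines (limma FDR 0.44). Prdm9, the histone methyltransferase that places the breaks, had 12.1 to 16.4 CPM in wild-type and 11.6 to 17.0 CPM in null lines (limma FDR 0.742). Mei1, Hormad1, Hormad2 and Dmc1 had 0 counts in all 7 libraries, and Iho1 and Spo11 had counts in a single wild-type library each. Mei4 was the only gene of this group with counts in every null line and in no wild-type line, as its choice required.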

How the data were processed

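Gene-level counts were analysed from 7 libraries of lymphoma cell lines, 3 wild-type and 4 Smchd1 null. The authors mapped reads of 100 bases to mm10 using Subread, counted them per gene using featureCounts, and deposited raw counts per Entrez gene with the gene length beside them. The treatment of reads that map to several places and the strand setting are not given in the sources used here. The library kit does not keep strand, so overlapping genes cannot be separated. Symbols and coordinates came from RefSeq GRCm38.p6, the same assembly as mm10, for 25275 of 27179 genes, which held 98.2% of counts.

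The filter kept 12303 genes that reached 0.5 CPM in at least 3 libraries, and TMM factors were used. Smchd1 null and wild-type lines were compared with voomWithQualityWeights, lmFit and eBayes in limma (version 3.58.1, R version 4.3.3) with no covariate, and the FDR is that of Benjamini and Hochberg. Alternatives used edgeR (version 4.0.16), DESeq2 (version 1.42.0) and other filters, normalisations, blocks and sets of libraries. Scripts were tested on simulated data. Chi-square tests of counts gave 3.96 per gene for wild-type replicates 2 and 3 and 18.1 or more for every other pair, so these 2 differ by more than sampling noise and were kept as separate samples. RPKM used the total count and the deposited gene length. Total counts ranged from 3626853 to 7519549, and intervals and limits of 3 counts cover counting error only.

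The 5 genes, their neighbours and the lists of related genes and markers were chosen with earlier results of these data known. Genes named are the 5, their neighbours and related genes, the 3 genes most like each, those near the limit of 5 CPM and the markers. A few genes that the rule would name are not reported here.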

Additional observations from a re-analysis of the deposited data

Results flagged for a closer look

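The screen compared each extreme value of the 4 Smchd1 null lines with the gap to its nearest neighbour (Dixon's test) in 41 values, for which chance would give about 2.05 flags, and 5 were flagged. Elavl2 had 258 CPM in null replicate 1, and the other 3 lines had 35.8 to 55.6 CPM. Cdkn2b, a neighbour of Elavl2, had 5.14 CPM in null replicate 2 and at most 0.592 CPM in the others. The other 3 flags fell on null replicate 4, the line farthest from its group. B4galt6, a neighbour of Garem1, had 79.1 CPM there and 5.63 to 12.5 CPM in the others. Senp6 and Hmgn3, neighbours of Mei4, had 263 CPM against 167 to 171 CPM, and 30.5 CPM against 0.463 to 3.53 CPM. The causes were not tested.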

How the results depend on the processing

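The 5 genes also met their conditions with TMM library sizes. Leaving out 1 library or allowing 1 count in a wild-type library only loosens the conditions, so the 5 could not fail there. A limit of 10 CPM kept 2 of them, and one of 2 CPM gave 15 genes in all. Leaving out libraries gave 9 to 12 genes. The null mean of Elavl2 was 46.8 CPM without null replicate 1, against 99.5 CPM with all 4 null lines. With at least 10 counts required in every library, 1533 of 9522 genes tested were called over the whole table. The number of genes called over the whole table was 1466 with sample weights, 382 with DESeq2, 12 with edgeR, 12 with voom alone, 1 with wild-type replicates 2 and 3 summed, 2797 at an FDR under 0.1, and 1 to 1641 when libraries were left out, with 1 left without wild-type replicate 2 or 3, 517 without null replicate 1 and 332 without null replicate 2. Called neighbours numbered 2 with DESeq2, 1 with at least 10 counts in every library, 0 with edgeR (7 at an unadjusted p under 0.05), 1 with voom alone, 0 with the pair summed (5 at an unadjusted p under 0.05), 0 among the single nearest genes, 2 within 1 Mb, and 0 to 5 when libraries were left out (0 without wild-type replicate 2 or 3, 2 without null replicate 2). Called related genes numbered 2 with DESeq2, 3 with at least 10 counts, 0 with edgeR, 0 with voom alone, 0 with the pair summed (4 at an unadjusted p under 0.05), 11 at an FDR under 0.1, and 0 to 5 when libraries were left out (0 without wild-type replicate 2 or 3, 2 without null replicate 1 or 2). The null minus wild-type difference of Smchd1 was -212.8 to -198 CPM without any 1 library, where the exact permutation p cannot go below 0.0667 or 0.1. Replicate numbers are shared between groups, but same-numbered lines did not deviate together (correlations -0.16, 0.22 and -0.21); with the replicate block 222 genes, 3 neighbours and 1 related gene were called. Depth limits the wild-type zeros to 0.181 CPM over the group. The causes of these shifts were not tested.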
